A study of Mus musculus with 69 samples.

Results

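The MAP kinase phosphatases are the dual-specificity phosphatases that remove both the phosphothreonine and the phosphotyrosine from the activation loop of MAP kinases. All 10 members of the family, Dusp1, Dusp2, Dusp4, Dusp5, Dusp6, Dusp7, Dusp8, Dusp9, Dusp10 and Dusp16, were found by gene symbol among the 24411 genes of the count table. All 10 also passed the filter on low counts that left 21175 genes to test. MAP kinases (ERK, JNK and p38) carry signals from growth factors, cytokines, osmotic stress and injury to transcription factors. Several of the phosphatases are themselves immediate early genes, which MAP kinase activity switches on within minutes, so they form a negative feedback loop. By place and substrate they fall into inducible nuclear enzymes (Dusp1, Dusp2, Dusp4, Dusp5), cytoplasmic enzymes that prefer ERK (Dusp6, Dusp7, Dusp9), and enzymes that prefer JNK and p38 (Dusp8, Dusp10, Dusp16). In the kidney tubule, ERK, JNK and p38 are known to respond to osmotic change and to reperfusion.

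The study measured newly made RNA in chosen cells of the mouse kidney. Every mouse carried 1 Rosa26 allele with uracil phosphoribosyltransferase (Uprt) of Toxoplasma gondii behind a floxed stop (UPRTf/+), and either Hoxb7Cre or Atp6v1b1Cre (spelled Atp6b1v1 in the labels) removed the stop. Cells with Uprt built 4-thiouracil (4-TU, 430 mg/kg) into RNA during the 4 h before the kidneys were taken, and this RNA was biotinylated, pulled down and sequenced. Hoxb7Cre acts throughout the collecting duct, principal and intercalated cells together, while Atp6v1b1Cre acts in intercalated cells and in cells with markers of both kinds, so each pulldown averages over the cells its Cre reaches.

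Control mice had neither injury. In the ischemia group (iAKI) both renal pedicles were clamped for 10 min and 4-TU was given 24 h later. In the volume depletion group (vAKI) the mice had no food or water for 72 h. All mice in the injury comparisons were 5.5 months old. In males these were 4 control, 4 ischemia and 3 volume depletion libraries with Hoxb7Cre, and 4, 3 and 4 with Atp6v1b1Cre. In females they were 4, 3 and 4 with Hoxb7Cre and 4, 3 and 3 with Atp6v1b1Cre. A further 5 control pulldowns came from mice of 3 months (2 Hoxb7Cre females and 3 Atp6v1b1Cre males). Another 21 libraries held total kidney RNA, not pulled down, of control mice with the same alleles (10 with Hoxb7Cre and 11 with Atp6v1b1Cre). The sample records give 4-TU for these mice too, so their total RNA includes tagged RNA. The total and pulldown control libraries were equal in number for each Cre, sex and age, and their sample codes run in blocks with the same order of these labels. The labels do not say whether a pulldown and a total library share a mouse. If they do, the comparison with total RNA is not one of independent samples, as the fit takes it to be. The p-values weigh each difference against the spread between these libraries, as the fit estimates it.

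The 69 libraries held 12618062 to 30305464 counts each (median 20868430). The collecting duct markers were present in every pulldown: the summed level of 5 principal cell genes had a median of 2226 CPM (counts scaled to library size) in the Hoxb7Cre controls, 773 in the Atp6v1b1Cre controls and 847 in total kidney RNA. Markers of other segments were lower than in total RNA but not at 0, with a median of 1970 CPM for 4 proximal tubule genes in the Hoxb7Cre controls against 9681 in total RNA. The 5 genes of T and B lymphocytes were higher in the Atp6v1b1Cre controls, at a median of 35.8 CPM (16.1 to 61.9). They were at 11.6 CPM (7.55 to 25.1) in total RNA and 10.1 in the Hoxb7Cre controls. In such bulk RNA, fewer cells of a type and less RNA per cell cannot be told apart. The female Hoxb7Cre controls of replicates 6, 9 and 10 stood apart from the other 18 control pulldowns in the immediate early gene Fos. It was at 84.5 to 132.7 CPM in them and at 2.14 to 24.5 CPM elsewhere. Dusp1 was high in these 3 libraries, at 254 to 377 CPM, but its range of 53.1 to 297 CPM in the other 18 overlapped. The ranges of Jun, Zfp36 and Egr1 overlapped as well. The female and sex comparisons with Hoxb7Cre, which use these 3 libraries, are given below also with other controls in their place. The sample codes fall into 3 runs, here series A, B and C, and the labels do not say what these mark. All treated Hoxb7Cre libraries were in series A, while the 4 male Hoxb7Cre controls were 2 of series A and 2 of series B. Of the female Hoxb7Cre controls of 5.5 months, replicate 1 was in series A, replicate 6 in B and replicates 9 and 10 in C. The 2 controls of 3 months put in place of the 3 high ones were of series B. In Hoxb7Cre females, treatment and series can therefore hardly be told apart.

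The proximal promoters of 3 members are shown. They were picked both for motifs of factors that MAP kinases act on and because these genes were among the members with the largest responses. A link between motif and response therefore cannot be read from them, and none was tested. Each promoter is the 250 bases before the RefSeq start (GRCm38.p6), read along the gene's strand. The capitals mark matches, on either strand, to the cyclic AMP response element TGACGTCA, to its shorter form TGACG, and to the CArG box of serum response factor.
Dusp1 (chr17:26508473-26508722, minus strand): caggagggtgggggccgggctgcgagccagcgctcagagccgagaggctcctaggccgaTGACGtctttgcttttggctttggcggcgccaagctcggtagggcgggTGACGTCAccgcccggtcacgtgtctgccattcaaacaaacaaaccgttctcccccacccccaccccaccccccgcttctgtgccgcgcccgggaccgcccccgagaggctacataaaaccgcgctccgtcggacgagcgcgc
Dusp5 (chr19:53528895-53529144, plus strand): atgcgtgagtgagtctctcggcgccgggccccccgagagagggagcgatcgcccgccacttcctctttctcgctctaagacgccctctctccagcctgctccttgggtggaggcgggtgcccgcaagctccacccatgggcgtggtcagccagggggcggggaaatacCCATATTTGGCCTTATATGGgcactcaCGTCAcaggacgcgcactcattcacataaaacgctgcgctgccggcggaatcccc
Dusp8 (chr7:142095285-142095534, minus strand): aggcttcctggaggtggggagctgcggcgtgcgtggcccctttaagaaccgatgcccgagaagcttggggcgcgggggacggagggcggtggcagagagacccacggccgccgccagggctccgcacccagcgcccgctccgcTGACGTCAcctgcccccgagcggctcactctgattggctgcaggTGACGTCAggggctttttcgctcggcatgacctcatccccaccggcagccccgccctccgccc

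Promoters of 8 of the 10 members were matched, and the reference used had none for Dusp4 and Dusp9. The full element TGACGTCA was found in the promoters of Dusp1 (143 to 136 bases before the start) and Dusp8 (2 copies, the nearer one 63 to 56 bases before it), and in 1.55% of the 32851 mouse promoters of this length. The shorter form TGACG, which every full element also holds, was found in Dusp1, Dusp5, Dusp8 and Dusp16 and in 17.8% of all promoters. Dusp5 held 2 abutting CArG boxes, 82 to 73 and 72 to 63 bases before the start, while 1.47% of all promoters held one. The AP-1 motif TGANTCA (6.75% of promoters), the FoxO motif TGTTTAC (3.17%) and the glucocorticoid receptor motif AGAACA (16.1%) had no match in the 8 windows. The E-box CACGTG (6.02%) matched in Dusp1 and Dusp2, and the NF-Y motif CCAAT (33.8%) in Dusp6, Dusp7, Dusp8, Dusp10 and Dusp16. These are matches of letters in short windows, all searched on both strands.

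In control collecting duct pulldowns, labeled RNA per length of exon was highest for Dusp1, Dusp16 and Dusp6 and lowest for Dusp9 and Dusp2. Such levels of RNA labeled over 4 h are not steady-state abundance. The authors caution that the method may favour RNA rich in uracil. They add that labeled RNA may reflect turnover, which potentially limits comparison between genes. Per kilobase of merged exons, the mean level in the 4 male Hoxb7Cre controls was 29.8 CPM for Dusp1, 22.1 for Dusp16, 18.3 for Dusp6, 11.7 for Dusp7, 7.14 for Dusp4 and 5.22 for Dusp8. It was 2.51 for Dusp5, 2.44 for Dusp10, 0.842 for Dusp9 and 0.355 for Dusp2. Neighbours in this order overlapped in their library ranges, except that Dusp8 lay above Dusp5 and Dusp10 above Dusp9. At this level Dusp2 rests on few reads, and its values carry more counting error than those of the other members.

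Against total kidney RNA, the pulldowns of both drivers were richer in Dusp10 and Dusp16, which prefer JNK and p38. A pulldown holds RNA made over 4 h in the labeled cells, and total RNA holds all RNA of all kidney cells. Cell type and RNA turnover can therefore not be told apart in this contrast. Dusp16, which shuttles between nucleus and cytoplasm, was at 205 ± 52.5 CPM in the 10 Hoxb7Cre controls and 181 ± 30.1 in the 11 Atp6v1b1Cre controls, against 82.3 ± 9.58 in the 21 total RNA libraries (mean ± SD). Its log2 fold change over total RNA was 1.33 ± 0.08 (SE) with Hoxb7Cre (adjusted p = 3.05e-19) and 1.21 ± 0.08 with Atp6v1b1Cre (adjusted p = 3.34e-18). For Dusp10 the log2 fold changes were 1.39 ± 0.19 (adjusted p = 1.66e-08) and 1.23 ± 0.19 (adjusted p = 2.31e-07). Dusp5, a nuclear enzyme specific for ERK, was called with Hoxb7Cre (1.36 ± 0.27, adjusted p = 2.07e-05). With Atp6v1b1Cre its log2 fold change was 0.59 ± 0.27 (adjusted p = 0.0538).

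A gene was called here and below when its adjusted p was under 0.05 and its log2 fold change was 1 or more in size. Of the 10 members, 3 were called between the Hoxb7Cre pulldown and total RNA, where 32.5% of all genes tested were called. With Atp6v1b1Cre 2 of 10 were called, against 27.7% of all genes. The share of members was near the background in both. The median log2 fold change of all genes was 0.107 in both comparisons, and that of the members was 0.32 and 0.49. Between the Atp6v1b1Cre and Hoxb7Cre control pulldowns 0 of 10 members were called by edgeR, against 4.11% of all genes (4334 of which had an unadjusted p under 0.05). The nearest was the X-linked Dusp9, a cytoplasmic enzyme that prefers ERK, at 0.74 ± 0.18 (adjusted p = 0.00386), higher with Atp6v1b1Cre but under the fold threshold. Without Atp6v1b1Cre control replicate 15, Dusp5 was called lower with that driver (-1.09, adjusted p = 0.00676).

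**Figure D1:**
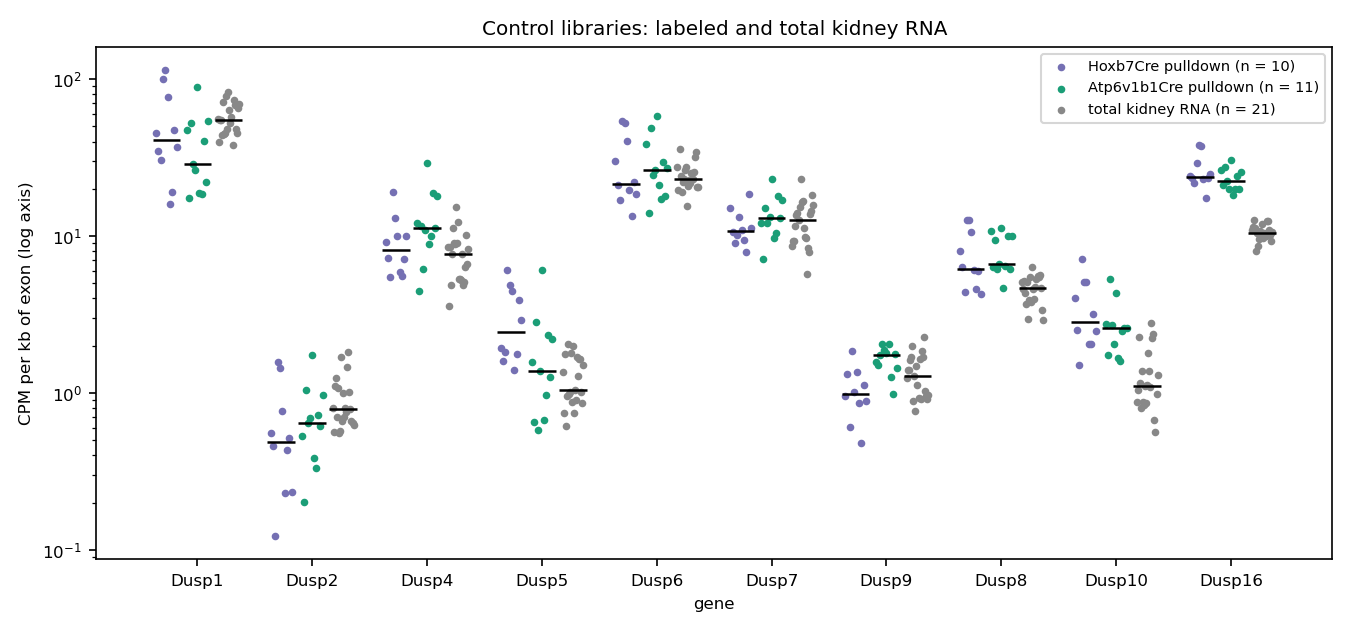
Levels of the 10 phosphatases in control libraries, in CPM per kilobase of exon on a log axis, with 1 point per library and a bar at the median for Hoxb7Cre pulldowns (n = 10), Atp6v1b1Cre pulldowns (n = 11) and total kidney RNA (n = 21). Dusp16 lies higher in both pulldowns than in total RNA, while the Dusp1 points of the 3 kinds of library overlap.

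After volume depletion 8 of the 10 phosphatases were higher in male Hoxb7Cre collecting duct, where 16.4% of all genes tested were called in either direction. The 8 were Dusp1, Dusp2, Dusp4, Dusp5, Dusp6, Dusp8, Dusp10 and Dusp16, all of them higher. With Atp6v1b1Cre in males 5 of 10 rose, Dusp1, Dusp2, Dusp5, Dusp8 and Dusp10, against 5.15% of all genes. With females in the same fit, which adds the 3 high controls, 4 members were called with Hoxb7Cre. Without Atp6v1b1Cre volume depletion replicate 6 the count for that driver was 3, and within series A it was 2. The median log2 fold change of the 10 members was 1.66 with Hoxb7Cre and 0.96 with Atp6v1b1Cre, and that of all genes was 0 in both. No member was called lower in either comparison. Markers of cell types moved with the treatment too, and of 12 marker lists 4 had ranges of their summed level that did not overlap between groups with Hoxb7Cre. Principal cell genes were at 2615 to 3313 CPM in controls and 1095 to 1202 after injury, thick ascending limb genes at 1329 to 2321 and 762 to 850.1 and fat cell genes at 36.1 to 99.98 and 13.7 to 26.2. Endothelial genes were higher, as the phosphatases were, at 77.5 to 144 and 159 to 223 CPM. With Atp6v1b1Cre 3 lists did not overlap, and all 3 were lower after depletion. They were the intercalated cell genes, which mark cells this driver labels (669.6 to 895 CPM in controls and 441 to 593 after depletion), the macrophage genes (89.5 to 128 and 55.8 to 89.2) and the fat cell genes (28.6 to 79.8 and 9.38 to 23.9). The macrophage genes overlapped with Hoxb7Cre (46.7 to 51.2 and 39.9 to 48.2 CPM), and the 2 neutrophil genes were near 0 with both drivers (at most 0.289 CPM). Of the 4 red cell genes 3 were at 0 in every group, total kidney RNA included, so their zeros tell nothing of red cells in the pulldowns. The part of these shifts in the phosphatase values was not tested.

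**Figure D2:**
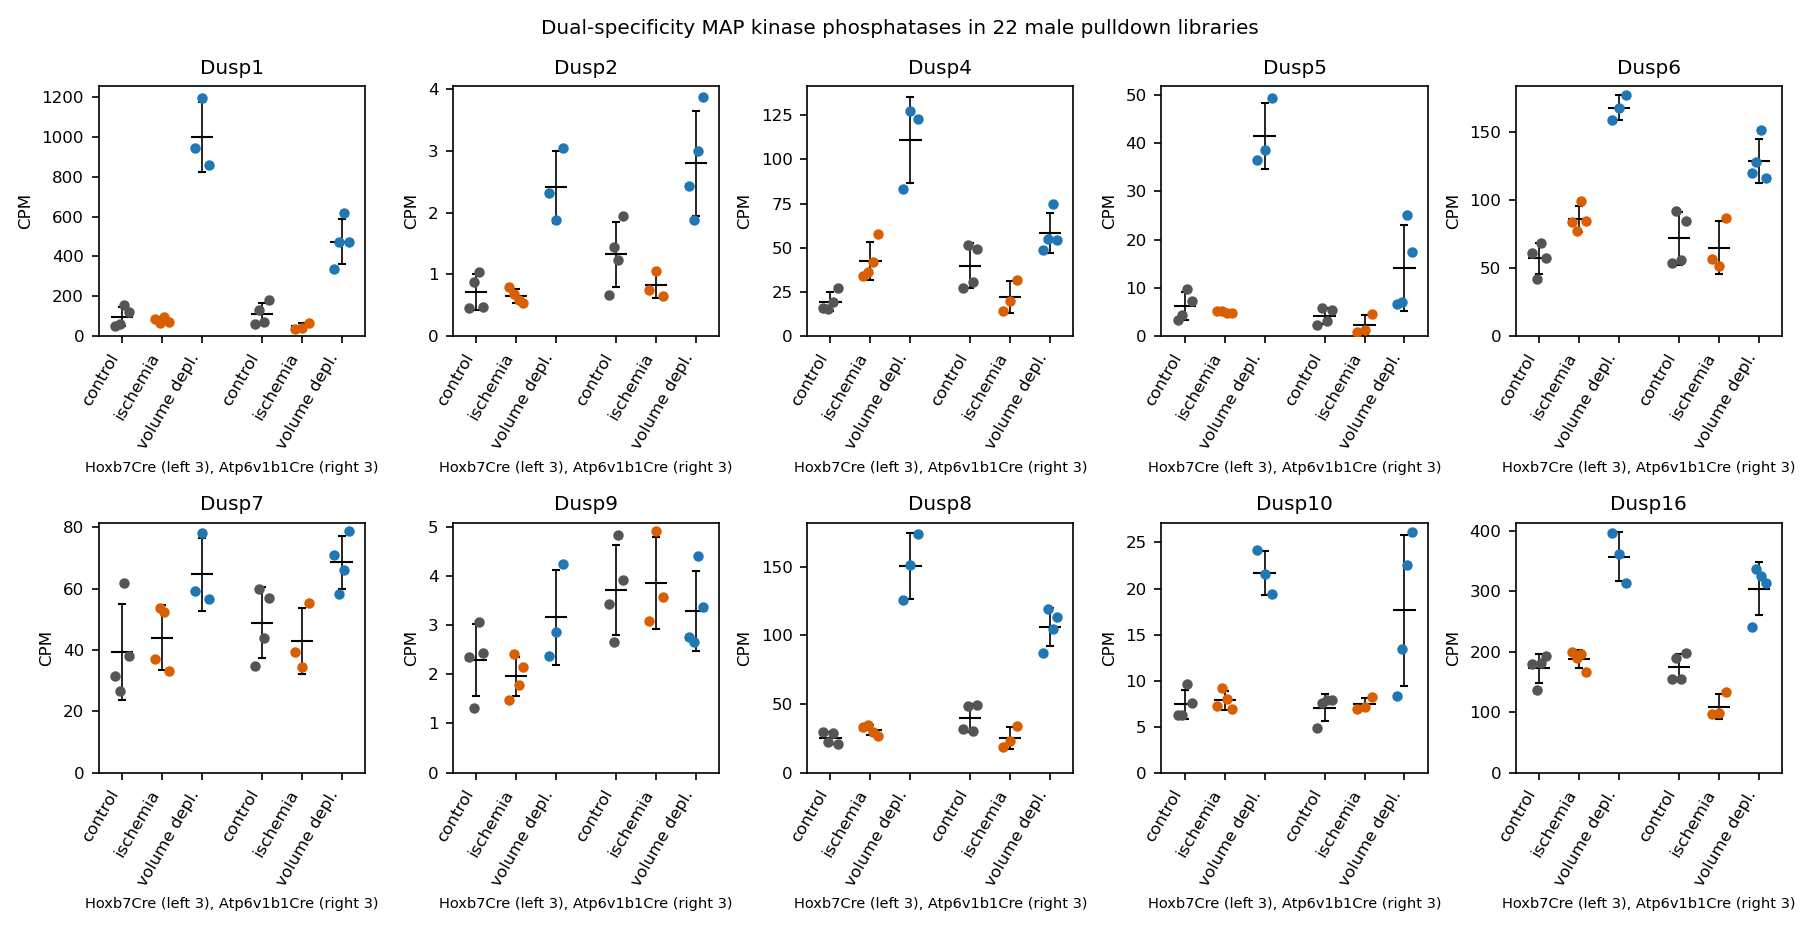
Level of each phosphatase in the 22 male pulldowns, in CPM on a linear axis from 0, with 1 point per library by driver and treatment and bars at the group mean ± SD. In Hoxb7Cre the 3 volume depletion points of Dusp1 sit between 861 and 1197 CPM, above all 4 controls.

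Dusp1 showed the largest response of the family. It encodes MKP-1, a nuclear phosphatase of p38, JNK and ERK and a classic immediate early gene. In Hoxb7Cre males it was at 53.1, 63.6, 156 and 122 CPM in the 4 controls and at 944, 1197 and 861 CPM after volume depletion. The lowest depleted library was thus far above the highest control. This was a 10.2-fold rise (log2 3.34 ± 0.36, adjusted p = 5.84e-07). The first 2 controls are of series A and the other 2 of series B, and within series A alone the log2 fold change was 4.11 (adjusted p = 2.99e-08). In Atp6v1b1Cre males the controls were at 61.3, 133, 72.7 and 179.8 CPM and the depleted libraries at 338, 472, 616 and 473 CPM. These groups did not overlap either, and the rise was 4.29-fold (log2 2.10 ± 0.33, adjusted p = 0.000342). The gene's annotated span (GRCm38 chr17:26505590-26562128, minus strand) overlaps Ergic1 on the opposite strand. The library kit did not mark strand, so reads from their shared bases cannot be told apart. The annotated span reaches upstream past the RefSeq start used for the promoter above. Where in the span the shared bases lie was not examined.

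Dusp4 and Dusp5 also rose steeply in Hoxb7Cre. Dusp4, a nuclear enzyme that acts on ERK and JNK, was at 16.1, 15.2, 19.6 and 27.3 CPM in controls and 83.02, 127 and 123 CPM after volume depletion, again with no overlap. Its log2 fold change was 2.51 ± 0.28 (adjusted p = 8.41e-07). In Atp6v1b1Cre it was at 27.5, 51.8, 30.6 and 49.6 CPM in controls and 49.0, 54.8, 74.8 and 54.4 after depletion. There the lowest depleted library lay below 2 controls, and the log2 fold change of 0.56 ± 0.25 did not pass (adjusted p = 0.146).

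Dusp5, whose promoter held the 2 CArG boxes shown above, was at 3.46, 4.36, 9.73 and 7.26 CPM in Hoxb7Cre controls and 36.5, 38.6 and 49.3 CPM after volume depletion. The rise was 6.72-fold (log2 2.75 ± 0.47, adjusted p = 8.88e-05), with no overlap. In Atp6v1b1Cre the controls were at 2.39, 5.76, 3.14 and 5.43 CPM and the depleted libraries at 6.62, 7.02, 25.1 and 17.4, in that order of replicates 1, 2, 6 and 7. The first 2 depleted libraries, of series A, were only just above the highest control, while those of series B were well above. Together they gave a log2 fold change of 1.75 ± 0.45 (adjusted p = 0.0114). Without replicate 6 it was 1.30 (adjusted p = 0.0663), and within series A it was 0.76 (adjusted p = 0.109).

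Dusp2, an inducible nuclear enzyme known best from immune cells, had the lowest level of all members per kilobase in the male controls of both drivers. It was at 0.464, 0.872, 1.04 and 0.469 CPM in Hoxb7Cre controls and 2.32, 1.88 and 3.04 CPM after volume depletion (log2 1.77 ± 0.35, adjusted p = 0.000426). The groups did not overlap, but all values were under 4 CPM. In Atp6v1b1Cre, controls were at 0.670, 1.45, 1.23 and 1.94 CPM and depleted libraries at 2.43, 1.89, 3.01 and 3.88, with 1 control above the lowest of the depleted. The log2 fold change of 1.07 ± 0.31 passed (adjusted p = 0.0244), but the call was lost without any of 4 libraries, control replicates 6 and 10 and volume depletion replicates 6 and 7 (0.85 to 1.03).

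Among the cytoplasmic enzymes that prefer ERK, Dusp6 alone was called in Hoxb7Cre males, and none of the 3 reached the fold threshold in Atp6v1b1Cre. Dusp6, whose level is a standard readout of ERK activity, was at 61.3, 41.8, 68.8 and 57.8 CPM in controls and 159, 168 and 177 after volume depletion. Its log2 fold change was 1.55 ± 0.20 (adjusted p = 3.6e-06). With Atp6v1b1Cre the values were 54.1, 92.3, 56.4 and 84.7 CPM in controls and 119.8, 128, 152 and 116 in depleted mice. All 4 depleted libraries were above all controls there, at a log2 fold change of 0.86 ± 0.19 (adjusted p = 0.00374) that lay under the threshold of 1.

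Dusp7 was at 26.5 to 61.8 CPM in Hoxb7Cre controls and 56.6 to 78.3 after depletion, and the ranges overlapped. Its log2 fold change was 0.72 ± 0.25 (adjusted p = 0.0254). Without control replicate 4, at 61.8 CPM the highest control, it was 1.03 (adjusted p = 0.00114). Dusp9 had log2 fold changes of 0.47 ± 0.29 (adjusted p = 0.228) and -0.17 ± 0.26 (adjusted p = 0.724) with the 2 drivers. Dusp7 and Dusp9 were called in none of the 19 comparisons.

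All 3 enzymes that prefer JNK and p38 rose in Hoxb7Cre males. Dusp8, which has 2 copies of TGACGTCA in the promoter shown above, was at 29.5, 22.5, 29.1 and 20.7 CPM in controls and 126, 151 and 174 after volume depletion. The rise was 5.93-fold (log2 2.57 ± 0.21), and its adjusted p of 3.02e-08 was the smallest in the family. In Atp6v1b1Cre it was at 31.5, 48.4, 30.2 and 49.0 CPM in controls and 87.0, 119, 104.2 and 113 after depletion. The groups did not overlap (log2 1.43 ± 0.19, adjusted p = 5.9e-05).

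Dusp10, a phosphatase of p38 and JNK in nucleus and cytoplasm, was at 6.24, 6.25, 9.63 and 7.59 CPM in Hoxb7Cre controls and 24.2, 21.5 and 19.4 after depletion (log2 1.55 ± 0.27, adjusted p = 0.000102). In Atp6v1b1Cre it was at 4.86, 7.55, 7.89 and 7.90 CPM in controls and 8.35, 13.5, 22.6 and 26.1 after depletion. The lowest depleted library was just above the highest control, and the log2 fold change was 1.33 ± 0.25 (adjusted p = 0.00154). Within series A it was 0.82 (adjusted p = 0.0441), under the fold threshold.

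Dusp16, the highest in CPM among these 3, went from 179.6, 137, 182 and 192 CPM to 396, 363 and 315 CPM in Hoxb7Cre. The log2 fold change of 1.05 ± 0.15 (adjusted p = 1.63e-05) was just over the threshold. It was 0.98 without volume depletion replicate 4 and 0.96 without control replicate 3, so its place among the 8 depends on those libraries, although the groups did not overlap. In Atp6v1b1Cre the log2 fold change was 0.82 ± 0.14 (adjusted p = 0.000844).

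**Figure D3:**
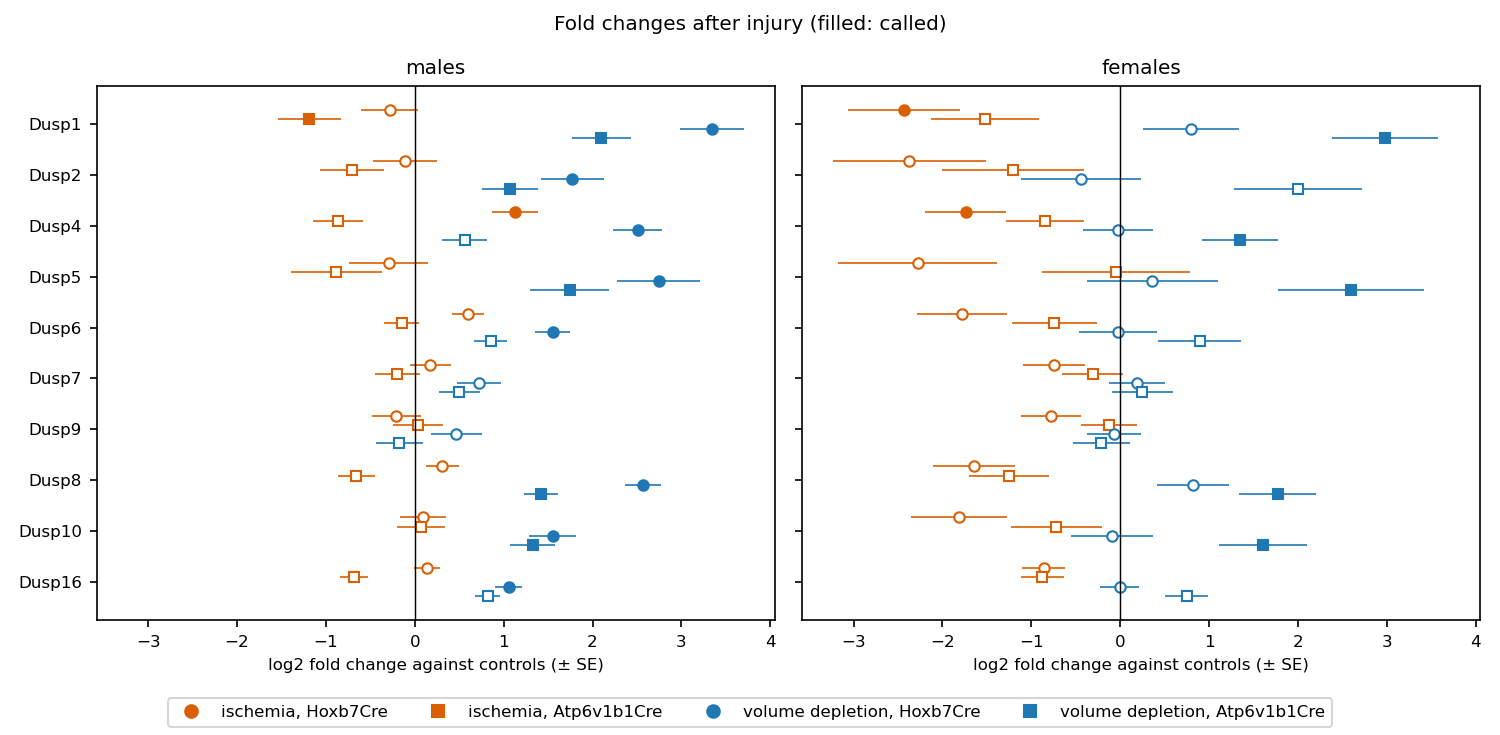
Log2 fold change (± SE) of each phosphatase against controls after ischemia and after volume depletion, by driver, in males (left) and females (right), with filled symbols for called members. In males after volume depletion the Hoxb7Cre points of Dusp1, Dusp4, Dusp5 and Dusp8 lie above 2, while after ischemia all male points lie between -1.19 (Dusp1 with Atp6v1b1Cre) and 1.13 (Dusp4 with Hoxb7Cre).

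After ischemia in males, 1 of 10 members was called with each driver, and it was a different one. The background was 2.3% of all genes with Hoxb7Cre and 2.82% with Atp6v1b1Cre. The injury genes Havcr1, Lcn2 and Krt20 passed with both drivers. Their summed level was 74.7 to 413.5 CPM with Hoxb7Cre and 18.5 to 469 CPM with Atp6v1b1Cre, against at most 17.2 CPM in the controls. The median log2 fold change of the 10 phosphatases was 0.11 with Hoxb7Cre and -0.67 with Atp6v1b1Cre. Besides the injury genes, 3 of the 12 marker lists did not overlap with Hoxb7Cre. The principal cell genes were at 2615 to 3313 CPM in controls and 976 to 1214 after injury, the fat cell genes at 36.1 to 99.98 and 7.22 to 21.3 and the 2 neutrophil genes at 0.049 to 0.194 and 0.436 to 1.14 CPM. With Atp6v1b1Cre they were also 3. The proximal tubule genes were at 1462 to 3034 CPM in controls and 567 to 819 after injury, the endothelial genes at 141 to 174 and 88.7 to 140.3 and the neutrophil genes at 0.042 to 0.209 and 0.463 to 1.35 CPM. Their part in the values below was not tested.

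In Hoxb7Cre the called member was Dusp4. It was at 34.1, 36.2, 41.8 and 57.5 CPM in the 4 ischemic libraries, each above the highest control of 27.3 CPM. This was a log2 rise of 1.13 ± 0.26 (adjusted p = 0.0118), which was 0.94 (adjusted p = 0.0538) without replicate 7, the highest. Within series A it was 1.43 (adjusted p = 0.00229), and with females in the same fit it was -0.24 (adjusted p = 0.784). Dusp6 was at 83.6, 77.2, 99.03 and 84.9 CPM, also above all 4 controls, with a log2 fold change of 0.60 ± 0.18 (adjusted p = 0.0556) that did not pass. Dusp1 was at 88.0, 64.3, 96.5 and 73.2 CPM, inside the range of the controls (-0.28 ± 0.32, adjusted p = 0.67). The controls of series A alone were lower, and against them the value was 0.46 (adjusted p = 0.257).

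In Atp6v1b1Cre the called member was Dusp1, and it was lower. It was at 38.4, 42.6 and 67.1 CPM after ischemia, and of the 3 libraries the first 2 were below all controls and the last was below 3 of the 4. The log2 fold change was -1.19 ± 0.36 (adjusted p = 0.0409). The call was lost without ischemia replicate 1 (-1.02, adjusted p = 0.193) or 4 (-1.08, adjusted p = 0.141), or without control replicate 9 (-1.10, adjusted p = 0.0977) or 11 (-0.84, adjusted p = 0.153). Without ischemia replicate 5 the count of called members was 3, and without control replicate 6 it was 2. Dusp16 was at 96.4, 98.1 and 134 CPM against 155 to 198 in controls, and Dusp8 at 18.6, 23.3 and 34.02 CPM against 30.2 to 49.0. Their log2 fold changes of -0.68 ± 0.16 (adjusted p = 0.011) and -0.66 ± 0.21 (adjusted p = 0.0496) passed on p but not on size. Dusp4 was at 14.3, 19.9 and 31.97 CPM, with -0.86 ± 0.28 (adjusted p = 0.0591).

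Set directly against ischemia, volume depletion gave higher levels of 6 of 10 members with Hoxb7Cre (14.7% of all genes called) and of 8 of 10 with Atp6v1b1Cre (11.6%). Both sets held Dusp1, Dusp2, Dusp4, Dusp5, Dusp8 and Dusp10, and the Atp6v1b1Cre set added Dusp6 and Dusp16. Dusp1 differed by 3.63 ± 0.36 on the log2 scale with Hoxb7Cre (adjusted p = 3.61e-07) and 3.29 ± 0.39 with Atp6v1b1Cre (adjusted p = 4.67e-06). With Atp6v1b1Cre, Dusp16 differed by 1.498 ± 0.16 (adjusted p = 1.67e-06) and Dusp6 by 1.00 ± 0.20 (adjusted p = 0.000779), the latter at the edge of the threshold. The same 2 members had 0.92 ± 0.15 and 0.95 ± 0.20 with Hoxb7Cre. No member was higher after ischemia by this test.

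The responses themselves were compared between drivers by an interaction term, Atp6v1b1Cre minus Hoxb7Cre. For ischemia 1 of 10 members differed, against 3.49% of all genes, and this was Dusp4 at -1.99 ± 0.38 (adjusted p = 0.00507). For volume depletion 2 of 10 differed, against 2.93% of all genes. Dusp4 was at -1.95 ± 0.37 (adjusted p = 0.0044) and Dusp8 at -1.14 ± 0.28 (adjusted p = 0.0189), both with the smaller response in Atp6v1b1Cre. The ischemia count was 2 without any 1 of 6 male libraries, Hoxb7Cre ischemia replicate 7 and controls 2 and 4, and Atp6v1b1Cre ischemia replicate 5 and controls 6 and 10. With females in the same fit no member differed between drivers in either response. The Dusp8 difference was -1.03 (adjusted p = 0.0729) without volume depletion Hoxb7Cre replicate 7. Dusp4 started higher with Atp6v1b1Cre, at 27.5 to 51.8 CPM in male controls against 15.2 to 27.3 with Hoxb7Cre. Dusp1 had a difference of -1.24 ± 0.47 (adjusted p = 0.14), so the larger rise with Hoxb7Cre was not shown to differ between drivers by this fit. With the library series as a covariate it was -1.70 (adjusted p = 0.00453).

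In females, calls after volume depletion were made with Atp6v1b1Cre and not with Hoxb7Cre. After volume depletion with Atp6v1b1Cre 5 of 10 members rose, against 9.89% of all genes, and they were Dusp1, Dusp4, Dusp5, Dusp8 and Dusp10. Dusp1 went from 157, 57.9, 173 and 94.6 CPM in controls to 1549, 671 and 627 (log2 2.98 ± 0.60, adjusted p = 0.00422), with no overlap. Dusp8 went from 52.2, 31.1, 45.6 and 30.0 CPM to 136, 127 and 143 (log2 1.77 ± 0.44, adjusted p = 0.01). Dusp5 had 2.59 ± 0.82 (adjusted p = 0.0333), Dusp10 1.61 ± 0.50 (adjusted p = 0.03) and Dusp4 1.35 ± 0.42 (adjusted p = 0.0325). Of the 12 marker lists 4 did not overlap here. The intercalated cell genes were at 819.7 to 1212 CPM in controls and 444 to 621 after injury, the macrophage genes at 80.1 to 132 and 50.2 to 72.9, the fat cell genes at 23.3 to 49.7 and 9.34 to 18.9 and the injury genes at 2.88 to 6.44 and 7.08 to 12.5 CPM, and their part in the rise was not tested. The count of called members was 3 without volume depletion replicate 4 or control replicate 7 of this driver, and 2 without volume depletion replicate 3 or 5 or control replicate 8 or 13.

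With Hoxb7Cre 0 of 10 members were called after volume depletion in females by edgeR, against 0.0992% of all genes. At an unadjusted p under 0.05 there were 1675 genes in that comparison. Dusp1 was at 100.7, 331, 377 and 254 CPM in the 4 controls and at 169, 395, 128 and 1153 CPM in the 4 depleted libraries. Of the marker lists, the injury genes alone did not overlap (7.19 to 10.5 CPM in controls and 22.4 to 42.3 after depletion). For Dusp1 the groups overlapped, and each held libraries that stood apart, the 3 high controls and depleted replicate 5. The log2 fold change was 0.80 ± 0.54 (adjusted p = 0.777). With the 3 high controls replaced by the 2 female Hoxb7Cre controls of 3 months it was 1.94 (adjusted p = 0.21). All the depleted libraries were of series A, and both of these sets of controls were of series B or C.

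After ischemia in females, 2 of 10 members were called lower with Hoxb7Cre, against 2.08% of all genes. Dusp1 was at 55.2, 49.6 and 42.2 CPM, below all 4 controls (log2 -2.43 ± 0.63, adjusted p = 0.0439). Dusp4 was at 13.3, 10.5 and 5.46 CPM against 15.1, 52.5, 35.8 and 27.2 in controls (log2 -1.74 ± 0.46, adjusted p = 0.0462). Besides the injury genes, 3 marker lists did not overlap in this comparison. The thick ascending limb genes were at 939 to 2320.5 CPM in controls and 3026 to 4123 after injury, the endothelial genes at 117 to 157 and 99.93 to 109.6 and the neutrophil genes at 0 to 0.112 and 0.317 to 0.432 CPM. The proximal tubule medians were 1556 and 3419 CPM, with ranges that overlapped, and the part of these shifts was not tested. Without the 3 high controls, and with those of 3 months in their place, the values were -1.29 for Dusp1 and -1.01 for Dusp4 and neither was called. Both of these sets of controls were outside series A, which held all the ischemia libraries of this driver. The count was 0 without ischemia replicate 1, 2 or 3, volume depletion replicate 2 or control replicate 6, 9 or 10 of Hoxb7Cre, or without ischemia replicate 2 or control replicate 7 or 13 of Atp6v1b1Cre. It was 1 without volume depletion Atp6v1b1Cre replicate 3, 4 without volume depletion Hoxb7Cre replicate 1 or 3, 6 without volume depletion Hoxb7Cre replicate 5 or ischemia Atp6v1b1Cre replicate 6, and 7 without control Hoxb7Cre replicate 1. With Atp6v1b1Cre 0 of 10 members were called by edgeR (1.15% of all genes, 4264 of them with an unadjusted p under 0.05), and 1 by DESeq2. The count was 4 without ischemia replicate 6 of that driver and 1 without volume depletion Hoxb7Cre replicate 5. Besides the injury genes, the neutrophil genes alone did not overlap (0.110 to 0.298 and 0.464 to 1.38 CPM). All 10 phosphatases had negative values there, the lowest for Dusp1 at -1.52 ± 0.61 (adjusted p = 0.16).

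**Figure D4:**
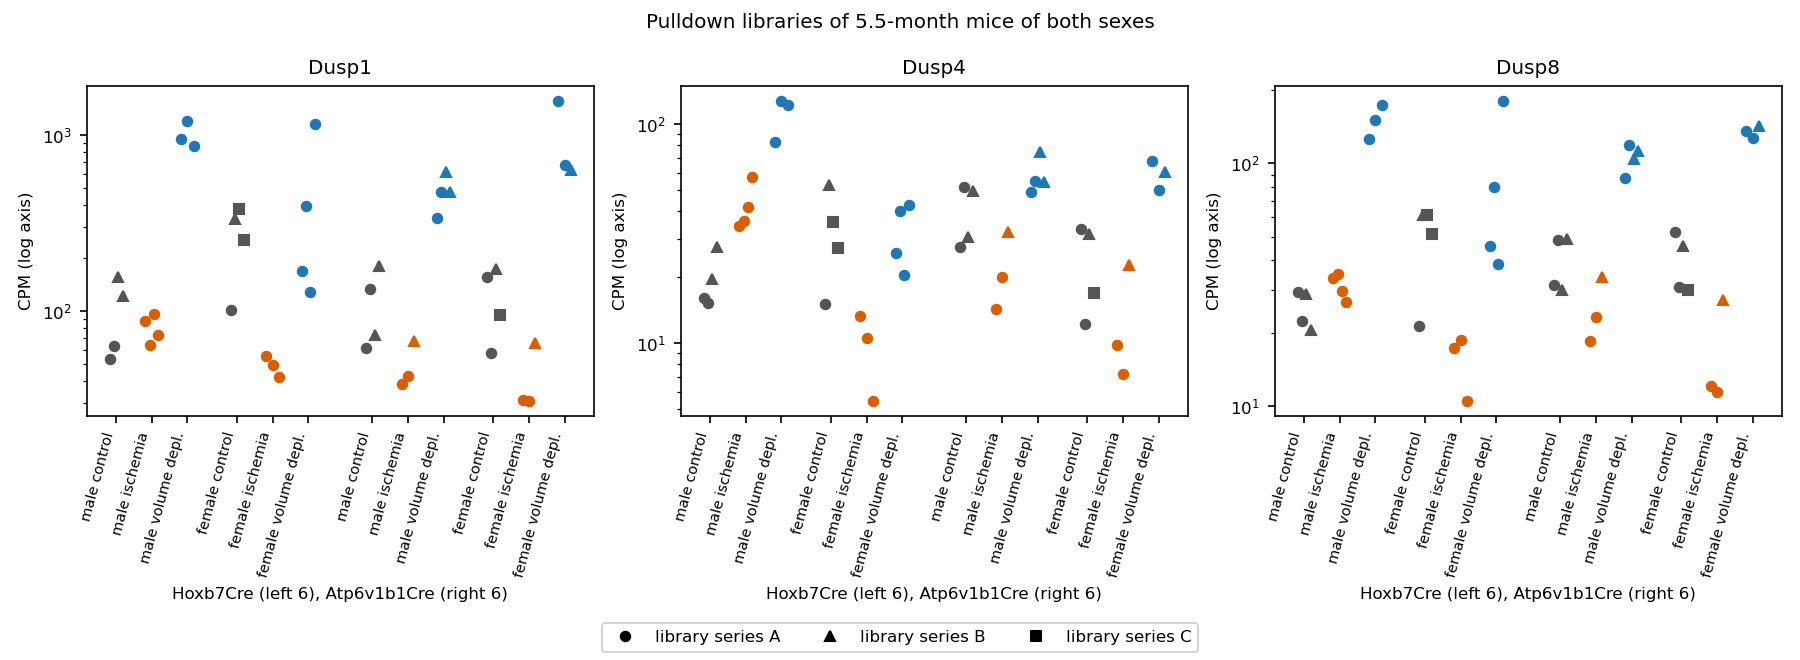
Levels of Dusp1, Dusp4 and Dusp8 in the pulldowns of 5.5-month mice of both sexes by driver and treatment, in CPM on a log axis, with 1 point per library shaped by library series. Female Hoxb7Cre controls 6, 9 and 10 (series B and C) lie above the remaining control of that group, at 254 to 377 CPM for Dusp1 against 100.7.

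Over all groups of pulldowns, the 4 highest means of Dusp1 were those of the 4 volume depletion groups and the 4 lowest those of the 4 ischemia groups. From the top they were 1000.4 ± 175 CPM (SD) in Hoxb7Cre males, 949 ± 520.2 in Atp6v1b1Cre females, 475 ± 113 in Atp6v1b1Cre males and 461 ± 476 in Hoxb7Cre females. The control groups followed, from 266 ± 121 CPM in Hoxb7Cre females, the group with the 3 high libraries, to 98.7 ± 48.8 in Hoxb7Cre males. Last came the ischemia groups, from 80.5 ± 14.5 CPM in Hoxb7Cre males to 42.7 ± 19.9 in Atp6v1b1Cre females. Neighbours in this order overlapped in range, except that volume depletion in Atp6v1b1Cre females lay above that in Atp6v1b1Cre males. Dusp8 had its 4 highest means in the same 4 groups, from 150.3 ± 23.98 to 86.3 ± 65.5 CPM.

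The difference between sexes was tested as male minus female response. With Hoxb7Cre 6 of 10 members differed in the response to ischemia (6.98% of all genes) and 6 of 10 in that to volume depletion (10.8%), and both sets were Dusp1, Dusp4, Dusp6, Dusp8, Dusp10 and Dusp16. For Dusp4 the differences were 2.89 ± 0.54 (adjusted p = 0.00379) and 2.54 ± 0.51 (adjusted p = 0.00259). The 2 comparisons share their control libraries. With female controls 6, 9 and 10 replaced by those of 3 months, which also changes the age and number of controls, 0 members differed in either. All of these controls were outside series A, which held the treated libraries, so the sex differences are confounded in part with series. For ischemia the count was 1 without ischemia replicate 3 and 3 without ischemia replicate 6 or control replicate 3, 9 or 10, and for volume depletion it was 3 without volume depletion replicate 3 or control replicate 3 or 9. With Atp6v1b1Cre 0 of 10 members differed between sexes in either response by edgeR, where 0% of all genes were called in each and 676 and 1756 genes had an unadjusted p under 0.05. For Dusp1 these differences were 0.34 ± 0.72 (ischemia, adjusted p = 1) and -0.89 ± 0.69 (volume depletion, adjusted p = 0.769).

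Other genes of the pathway were counted by lists in the 4 male comparisons, and the shares of all genes called in them were 16.4% (volume depletion with Hoxb7Cre), 5.15% (with Atp6v1b1Cre), 2.3% (ischemia with Hoxb7Cre) and 2.82% (with Atp6v1b1Cre). The lists were not tested against each other. Of 29 immediate early genes driven by MAP kinases, 25 rose after volume depletion with Hoxb7Cre and 18 with Atp6v1b1Cre, with none lower, at median log2 fold changes of 2.61 and 1.55. With females in the same fit the first count was 11. After ischemia 2 rose with Hoxb7Cre (1 to 4 on leaving out 1 male library at a time), and with Atp6v1b1Cre none was called (0 to 2). Both upper values came without Atp6v1b1Cre volume depletion replicate 1, and the value of 1 came without any of 10 libraries, among them Hoxb7Cre ischemia replicates 5, 6 and 7 and controls 2, 3 and 4. Fos, a subunit of AP-1, rose by 3.71 ± 0.59 and 2.91 ± 0.56 on the log2 scale with the 2 drivers after volume depletion (adjusted p = 4.65e-05 and 0.00173). Atf3, a stress-induced repressor, rose by 3.81 ± 0.51 and 2.07 ± 0.46, and Ier2, a nuclear immediate early protein, by 3.71 ± 0.50 and 2.57 ± 0.47. Zfp36, which encodes the mRNA-destabilizing protein tristetraprolin, rose by 3.64 ± 0.40 and 2.21 ± 0.36 (adjusted p = 6.23e-07 and 0.000476).

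Of 10 other feedback inhibitors of the ERK pathway, 5 rose after volume depletion with Hoxb7Cre (2 with females in the same fit) and 3 with Atp6v1b1Cre. Spry4, a Sprouty inhibitor of receptor tyrosine kinase signalling, rose by 3.38 ± 0.29 and 1.39 ± 0.26, and also after ischemia with Hoxb7Cre (1.13 ± 0.27, adjusted p = 0.0145). Errfi1, an inhibitor of the EGF receptor, rose by 3.12 ± 0.32 and 2.04 ± 0.30 after volume depletion, and after ischemia with Atp6v1b1Cre it fell (-1.26 ± 0.32, adjusted p = 0.0177). Spry1 rose by 1.51 ± 0.33 and 1.2 ± 0.31, and Spry2 by 1.23 ± 0.28 with Hoxb7Cre. In Atp6v1b1Cre, Spry2 was at 0.83 ± 0.26 and under the fold threshold.

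Of 13 MAP kinases, 1 rose after volume depletion with Hoxb7Cre, the atypical kinase Mapk6 (1.31 ± 0.16), and none with Atp6v1b1Cre. After ischemia 1 rose with Atp6v1b1Cre, the p38 isoform Mapk11 (1.21 ± 0.24, adjusted p = 0.00356). Of 7 MAP kinase kinases, 2 rose after volume depletion with Hoxb7Cre, Map2k3 (1.37 ± 0.19) and Map2k6 (1.17 ± 0.22), both activators of p38. Map2k6 fell after ischemia with Atp6v1b1Cre (-1.86 ± 0.24, adjusted p = 0.000297).

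Of 18 MAP kinase kinase kinases, 3 rose and 2 fell after volume depletion with Hoxb7Cre (3 were called in all without volume depletion replicate 6) and 1 rose with Atp6v1b1Cre, the latter a share near that of all genes. Map3k8, an activator of the ERK cascade, rose by 2.59 ± 0.33 and 1.27 ± 0.30, and Map3k6 by 2.12 ± 0.27 with Hoxb7Cre. Mos was among the 2 that fell, but all male pulldowns held it at 0.169 CPM or less, so no fold is given. Map3k13 fell after ischemia with Atp6v1b1Cre (-1.47 ± 0.45, adjusted p = 0.0446). Of 11 MAP kinase activated kinases, 1 was called in the 4 male injury comparisons, Mknk2 (1.13 ± 0.14, volume depletion with Hoxb7Cre).

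Of 13 atypical dual-specificity phosphatases, which lack the domain that docks MAP kinases, 1 rose and 2 fell after volume depletion with Hoxb7Cre and 1 rose with Atp6v1b1Cre. Dusp14 rose by 1.46 ± 0.31 and 1.36 ± 0.30. Dusp18 and Dusp19 fell with Hoxb7Cre (-1.12 ± 0.18 and -1.86 ± 0.27). No atypical member was called after ischemia in males. Of 3 tyrosine phosphatases of MAP kinases, Ptpn7 rose after ischemia with Hoxb7Cre (1.59 ± 0.45, adjusted p = 0.036) and fell after volume depletion with Atp6v1b1Cre (-1.17 ± 0.34, adjusted p = 0.0256). Ptpn5 was also called lower there, from 0.168 to 0.975 CPM in controls to at most 0.106 CPM.

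**Figure D5:**
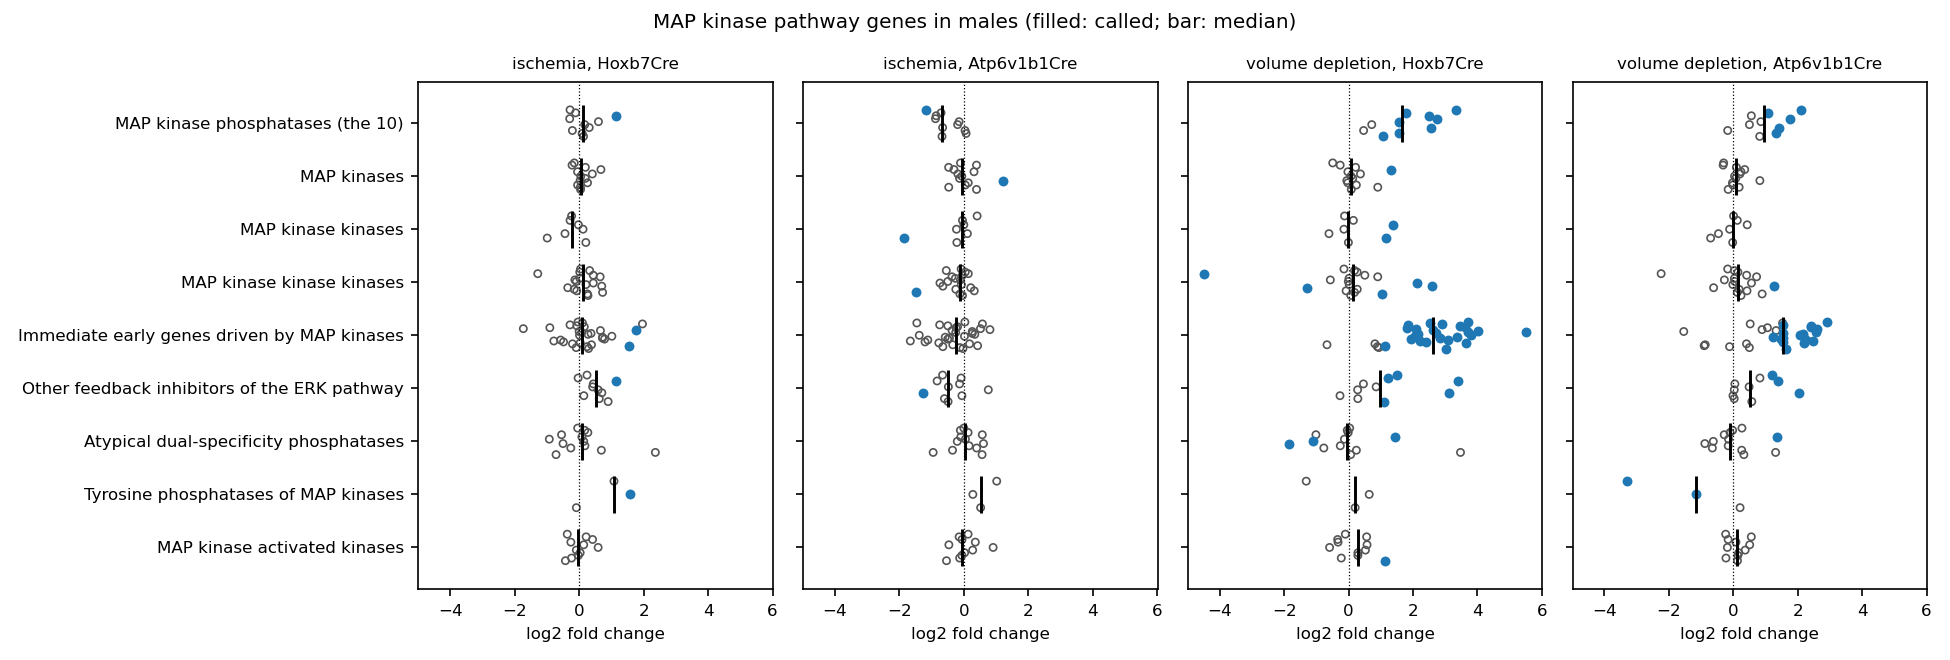
Log2 fold changes in males of the genes of each list after ischemia and volume depletion by driver, with 1 point per gene, filled where called, and a bar at the list's median. After volume depletion the medians of the immediate early genes are 2.61 (Hoxb7Cre) and 1.55 (Atp6v1b1Cre), and those of the MAP kinases are 0.084 and 0.077.

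Between libraries of the same group the members varied together. Over the 43 pulldowns of 5.5 months, with the means of the 12 groups removed, all 45 pairs of members had a positive Pearson r of log2 CPM, with a median of 0.70. Of these, 37 were over 0.5. The highest was 0.853 between Dusp5 and Dusp6 and the lowest 0.254 between Dusp9 and Dusp16. The points share library depth and RNA handling, and the same values for pairs of other genes were not computed. These correlations are given as a description and are not shown to be particular to the family. Among 15121 genes compared, those most like Dusp1 by this measure were Zfp36 (0.952), Jun (0.918), Mafk (0.917), Etv3 (0.916) and Epha2 (0.907). Those most like Dusp5 were Ppan (0.936), 1700017B05Rik (0.923), Nup62, Bcar1 and Pygo2 (0.922 each).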

How the data were processed

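Poly(A) RNA libraries (TruSeq) were sequenced on an Illumina HiSeq. The authors converted the base calls with CASAVA 1.8.2, trimmed with Trimmomatic 0.36, aligned to mm10 with STAR 2.5.3a and counted reads per gene with HTSeq 0.6.1p2 at its default settings, and they deposited raw counts, 1 column per library. The gene annotation they used is not given in the sources used here. The table had 0 columns of unknown sample and no comparison columns. The kit does not mark strand, so overlapping genes on opposite strands share reads.

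Counts were normalised by TMM and tested with edgeR 4.0.16 (quasi-likelihood F test, Benjamini-Hochberg adjustment over the 21175 genes whose 69 libraries summed to 2 counts or more, R 4.3.3). The 22 males, the 21 females, all 43 of these (differences between sexes) and the 42 control libraries were fitted separately. Group was the only term, except that the fit of the 42 control libraries also held sex. A call needs an adjusted p under 0.05 and an absolute log2 fold change of at least 1. CPM are counts scaled by the TMM library sizes. A count of 0 or near it limits precision by counting error beside the spread between libraries, and depth is given with the results.

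DESeq2 1.42.0, other filters, sample sets and covariates, and each library left out in turn were tried. The samples were grouped by the title, sex and age labels. The 5 controls of 3 months were kept out of the injury comparisons and into the comparisons of controls. Replicate numbers do not pair the samples. In the 22 males, the mean correlation of deviations was 0.002 over 20 same-numbered pairs (-0.419 to 0.308). In the 42 control libraries it was 0.095 over 26 (-0.34 to 0.537), and no source says that a number marks a shared animal or day. Total libraries are numbered apart from the pulldowns, so this check cannot show whether a pulldown and a total library share a mouse.

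Genes named beside the 10 members are the 4 of each list (fewer where fewer were called) with calls in most of the 4 male injury comparisons, ties by size, and genes most like a member were sought for the 2 members by the same order (Pearson r, prior count 2, mean count of at least 10). For cell markers, sums are given. The members, lists and tests were chosen with earlier results of these data known. The scripts were tested on simulated data with known fold changes. Promoter sequences are from RefSeq (GRCm38.p6), and positions of genes from a GRCm38 annotation.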

Additional observations from a re-analysis of the deposited data

Results flagged for a closer look

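A library stood far from the rest of its group, by the gap to its nearest neighbour, in 3 of the 80 sets examined. Each set was 1 member in 1 group, either a group of 4 libraries or the 10 Hoxb7Cre control pulldowns of both sexes. The latter hold some of the same libraries again. About 1 in 20 sets would be flagged by chance. Dusp5 was at 36.5 CPM in volume depletion Hoxb7Cre female replicate 5, where the next highest of 4 was 8.81 CPM, and Dusp7 was at 58.7 CPM in the same library, where the next was 37.1 CPM. Dusp10 was at 4.86 CPM in male Atp6v1b1Cre control replicate 6, where the next lowest was 7.55 CPM.

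Responses differed between drivers in males by the interaction term for Dusp4 after ischemia (-1.99 ± 0.38 on the log2 scale, SE, Atp6v1b1Cre minus Hoxb7Cre, edgeR adjusted p = 0.00507), for Dusp4 after volume depletion (-1.95 ± 0.37, adjusted p = 0.0044) and for Dusp8 after volume depletion (-1.14 ± 0.28, adjusted p = 0.0189).

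Responses with Hoxb7Cre differed between sexes, male minus female. For ischemia the differences were 2.16 for Dusp1, 2.89 for Dusp4, 2.40 for Dusp6, 1.98 for Dusp8, 1.92 for Dusp10 and 1.01 for Dusp16, with edgeR adjusted p-values of 0.00379 (Dusp4) to 0.0434 (Dusp1). For volume depletion they were 2.56 for Dusp1, 2.54 for Dusp4, 1.59 for Dusp6, 1.76 for Dusp8, 1.65 for Dusp10 and 1.07 for Dusp16, with adjusted p-values of 0.00259 (Dusp4) to 0.0445 (Dusp10). With female controls 6, 9 and 10 taken out and the 2 controls of 3 months put in, none of these 12 was called, and counts also fell when single other libraries were left out.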

How the results depend on the processing

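Counts of called members are given by comparison, with H for Hoxb7Cre and A for Atp6v1b1Cre, and the causes of these shifts were not tested. Leaving out 1 library at a time gave 0 to 1 for ischemia H males, 0 to 3 for ischemia A males, 7 to 9 for volume depletion H males and 3 to 5 for A males. Between stimuli it gave 6 to 7 (H) and 7 to 8 (A), between drivers 1 to 2 (ischemia) and 1 to 3 (volume depletion). In females it gave 0 to 7 and 0 to 4 (ischemia, H and A) and 0 to 0 and 2 to 6 (volume depletion), between sexes with H 1 to 7 (ischemia) and 3 to 8, and in controls 3 to 3 (H against total), 2 to 2 (A against total) and 0 to 1 (A against H). Without the fold threshold there were 3 for ischemia A males, 3 for ischemia between drivers, 6 for A against total and 1 for A against H. With both sexes in 1 fit there were 0 (ischemia H), 4 (volume depletion H) and 0 and 0 (between drivers), Dusp4 after ischemia H was -0.24, and the Dusp8 difference between drivers in volume depletion was 7e-04 on the log2 scale. With all 69 libraries there were 2 (ischemia A) and 4 (volume depletion H), and Dusp4 after ischemia H was -0.23. With only the 2 groups compared, 0 were called for ischemia A males. With the replicate block, although the numbers do not pair the samples, there were 0 and 0 (ischemia H and A males), 9 (volume depletion A males), 0 and 0 (between drivers), 1 (A against total) and 1 (A against H), and Dusp1 after ischemia A was 0.083. With the library series as covariate, 3 (ischemia) and 4 (volume depletion) differed between drivers. Within series A alone, an alternative chosen after seeing the data, 3 (ischemia A) and 2 (volume depletion A) were called. DESeq2 gave 6 and 1 for ischemia in females (H and A). Controls of 3 months, also added after seeing the data, gave 4 for ischemia H females and 3 for the difference between sexes in volume depletion H when added, and 0 for those and for the difference in ischemia when they replaced controls 6, 9 and 10. Controls of 5.5 months only, and males only, each gave 1 for A against H, and females only gave 1 for A against total. Dusp2 had few reads at this depth.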
